A study of Homo sapiens with 4 samples.

Results

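Boundaries between chromatin domains that held their position in every sample were examined in VA-ES-BJ cells, an established epithelioid sarcoma line, in the presence and absence of a BAF47 vector. The boundaries described here were chosen by their listed positions: a 1-bin boundary is a stretch of exactly 50 kb between consecutive listed domains, and it was kept where all 4 samples listed it at the identical position. On the 20 autosomes used, 3761 of the 7059 distinct positions with a 1-bin boundary in any sample met this rule (7858 positions on all 22 autosomes), and they are called common boundaries below. Their number and positions therefore describe the choice and were not tested. What the rule did not use is the inside of the interval between consecutive common boundaries, apart from requiring that no inner 1-bin boundary is in all 4 lists.

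All 4 samples were VA-ES-BJ cells infected with lentivirus and selected with blasticidin. In 2 samples, empty vector A and B, the virus carried no insert, and in 2 samples, BAF47 A and B, it expressed BAF47 constitutively. Contacts were measured by Hi-C, which ligates and sequences stretches of crosslinked chromatin that lie close together in the nucleus, and the authors reduced each library to a list of domains. The labels do not say whether A and B are separate infections, so p-values over samples measure the spread between these samples only, which may be technical. The level of BAF47 was not measured by these lists, and read depth is unknown.

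Topologically associating domains are stretches of chromosome whose sequences contact each other more than they contact the neighbouring stretches. Their boundaries in mammals are often occupied by CTCF and cohesin, which hold loops of chromatin, and many lie close to active promoters and are found in several cell types. BAF47 is encoded by SMARCB1 and belongs to the BAF (SWI/SNF) complex, which moves nucleosomes and keeps enhancers accessible. Its loss is typical of epithelioid sarcoma.

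Positions are given in the numbering of the lists. All 20 lists of the 5 acrocentric chromosomes start at position 0, where the short arm of the genome build has no sequence, so listed positions leave out some bins, cannot be read as hg18 coordinates and carry no gene names here. Chromosomes 9 and 20 were left out because the numbering steps by 50 kb between lists there. On the other 20 chromosomes none of the 60 comparisons of a list with that of empty vector A found such a step. No list held a stretch of 100 kb between domains, so the next wider gap after the 1-bin boundary was 150 kb.

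Most 1-bin boundaries of every sample were common boundaries. Empty vector A listed 5260 on these chromosomes and empty vector B 5203, and the common boundaries made up 71.5% and 72.3% of them. BAF47 A listed 5310 and BAF47 B 5366, with 70.8% and 70.1% common. The 4 samples thus differed by less than 3 percentage points, and since the same 3761 are divided by more boundaries, the shares of both BAF47 lists are the lower ones. Boundaries that no other sample listed numbered 346 and 342 with empty vector (A, B) and 366 and 380 with BAF47.

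**Figure D1:**
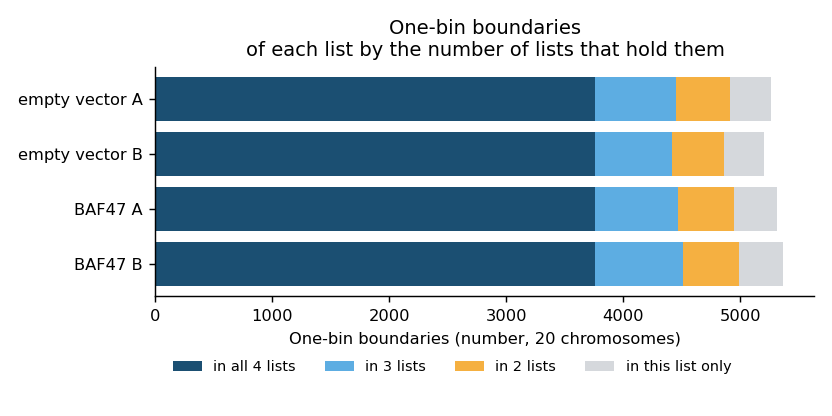
The horizontal axis counts the 1-bin boundaries of each list on 20 chromosomes, and the colours show how many of the 4 lists hold each position. The 3761 common boundaries make up 70.1 to 72.3% of each list, and 342 to 380 boundaries per list are in no other.

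Positions just outside the rule were mostly still marked by an edge. In all, 933 positions were listed as 1-bin boundaries by exactly 3 samples, 931 by 2 and 1434 by 1. Of the 933, the empty vector samples lacked 247 (A) and 274 (B) and the BAF47 samples 225 (A) and 187 (B). At 479 of them (51.3%) the remaining sample listed a 1-bin boundary 50 kb away, the smallest step the lists can show. At 214 (22.9%) the bin lay inside a domain with no 1-bin boundary 50 kb away. There the neighbouring domains could be merged, the boundary could lie further off, or a wider unlisted stretch could lie nearby. At 152 the bin lay in an unlisted stretch of 150 kb and at 88 in a longer one. Empty vector B accounted for 66 of the 152, and the other samples for 25 to 31 each.

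Few of all 1-bin boundary positions separated the vectors. Both BAF47 samples and no empty vector sample listed 241, which is 3.41% of the 7059 positions. Both empty vector samples and no BAF47 sample listed 218, or 3.09%. Only the 931 positions in exactly 2 lists could separate the vectors in this way, and the 241 and 218 are parts of those 931. Of the 6 pairs of lists, 2 are of the same vector. For 109 of the 241 and 108 of the 218, a list of the other vector had a 1-bin boundary 50 kb away. Single positions were not tested, since presence in 2 samples against 2 allows no exact permutation p below 0.33.

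Both flanking domains were identical in all 4 samples at 2072 common boundaries (55.1%), one flank only at 1449 (38.5%) and neither at 240 (6.38%). Part of this is fixed by the rule, which sets 1 edge of each flank. Of the 3741 intervals between consecutive common boundaries, 838 were 50 or 100 kb long and too short to be divided. The flanks that fill them are identical by construction. The median flanking domain was 200 kb long in each sample, against 150 kb beside the 1-bin boundaries that were not common. Domains of 50 kb, the shortest the lists can hold, made up 13.9 to 14.2% of the flanks of common boundaries and 23.4 to 24.6% of the flanks of the others. These lengths describe the chosen positions and were not tested.

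Most distances between consecutive common boundaries were short, and a smaller number were very long. The 3741 distances between consecutive common boundaries had a median of 350 kb, with quartiles of 200 and 650 kb, where each sample's own 1-bin boundaries lay a median of 250 kb apart. The mean was 665 kb with an SD of 1063 kb, 1.60 times the mean, so the spread is set by a long upper tail. The most frequent distance was 150 kb, with 484 cases, followed by 200 kb with 391. The shortest possible distance of 100 kb, a single 50 kb domain between common boundaries, occurred 354 times.

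Short distances were many and long ones held most of the genome. Distances of up to 500 kb made up 68.0% of all and 25.8% of the summed 2487 Mb. The 573 distances over 1 Mb were 15.3% of all and 56.1% of the sum. Those over 2 Mb numbered 238 and those over 5 Mb 40, with 37.0% and 12.2% of the sum. Neighbouring distances were only weakly alike, with a Spearman rho of 0.07 over 3721 neighbouring pairs, which share a boundary. The distance that followed one of up to 200 kb had a median of 300 kb, and that after one of over 1 Mb a median of 400 kb.

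**Figure D2:**
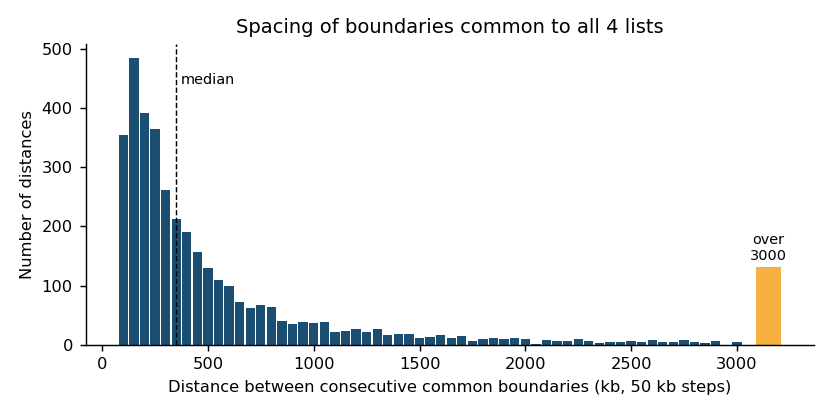
Bars count the distances between consecutive common boundaries in 50 kb steps on 20 chromosomes, with distances over 3000 kb joined in the last bar and the median of 350 kb as a dashed line. The count is highest at 150 kb, with 484 distances, and falls off into a tail that reaches 16.4 Mb.

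Runs of common boundaries at the shortest distances of 100 to 150 kb mostly held 2 boundaries. A single such distance makes a run of 2, and 838 of the 3741 distances (22.4%) were this short. Whether runs were more frequent than among shuffled distances was not tested. There were 663 runs, which held 1501 or 39.9% of the common boundaries. Of these, 523 held only 2 boundaries, 114 held 3 and 26 held 4 or more. The longest held 7 common boundaries, on chromosome 1 from 28.4 to 29.25 Mb. Next came runs of 6 on chromosome 1 (109.4 to 110.1 Mb) and on chromosome 12 (8 to 8.7 Mb). Intervals this short cannot be divided further on the grid, so all 4 lists give the same chain of 50 and 100 kb domains there.

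The longest stretches without a common boundary held from 4 to 26 domains per sample. The distance of 16.4 Mb on chromosome 11 (interval 82.1 to 98.45 Mb) held 23 to 26 domains per sample, and that of 14.6 Mb on chromosome 5 (17.2 to 31.75 Mb) held 12 to 19 domains. That of 11.8 Mb on chromosome 3 (78.6 to 90.35 Mb) held 11 to 15 and that of 11.55 Mb on chromosome 14 (58.95 to 70.45 Mb) 11 to 14. Part of their inside was still alike. On chromosome 3 all 4 samples listed a domain from 81.15 to 85.7 Mb, and on chromosome 14 a domain from 63.05 Mb ended at 69.2 Mb in 3 samples and at 69.15 Mb in BAF47 B. The distance of 12.45 Mb on chromosome 13 (42.85 to 55.25 Mb) held only 4 domains in each empty vector sample, 5 in BAF47 A and 6 in BAF47 B. Its domains were long, and 10.55 to 10.9 Mb of it was listed in each sample.

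Common boundaries were densest on chromosomes 17, 19 and 22, which are known to be rich in genes and GC. Over the 20 chromosomes there were 1.5 common boundaries per Mb of listed positions. Chromosome 17 had 2.26 per Mb (177 boundaries), chromosome 19 had 2.06 (115) and chromosome 22 had 2.0 (70). The sparsest were chromosome 18 with 1.08 per Mb (81), chromosome 13 with 1.13 (108) and chromosome 4 with 1.19 (224). Chromosomes 4, 13 and 18 are known to be poor in genes. The ratio of the highest to the lowest density was 2.09, and without BAF47 B chromosome 13 took the place of chromosome 18 as the sparsest (ratio 2.11). The median distance was 250 kb on chromosomes 14, 19 and 22 and 450 kb on chromosome 13, and 21.97% of distances on chromosome 4 exceeded 1 Mb, against 7.89% on chromosome 19.

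The density of common boundaries ranked chromosomes much as the lists' own boundaries did, while the share that was common hardly followed it. The 4 lists' own 1-bin boundaries numbered 3.19 ± 0.07 per Mb on chromosome 17 and 1.73 ± 0.06 on chromosome 18 (SD, n = 4). Across the 20 chromosomes the Spearman rho between common and own density was 0.95, where common boundaries are part of each list's own. Between common density and the share of own boundaries that were common it was 0.26. That share was highest on chromosome 16, at 74.9 ± 0.76% (SD, n = 4 lists), and lowest on chromosome 18, at 62.7 ± 2.0%. Chromosome 17 had 70.8 ± 1.62% and chromosome 19 had 67.1 ± 2.92%, both below chromosome 8 with 74.4 ± 1.18%, although chromosome 8 had 1.44 common boundaries per Mb.

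**Figure D3:**
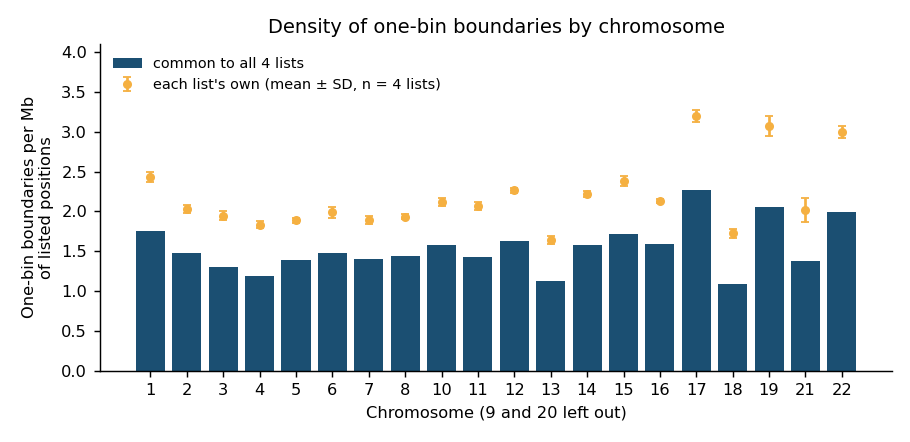
Blue bars give common boundaries per Mb of listed positions for 20 chromosomes, and orange points give each list's own 1-bin boundaries per Mb (mean ± SD, n = 4 lists). Chromosome 17 is highest in both, with 2.26 and 3.19 per Mb, and chromosome 18 is lowest in common boundaries, with 1.08.

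The ends of the lists were denser in boundaries and kept a smaller share of them. Within 5 Mb of the first or last listed position there were 376 common boundaries, 1.88 per Mb, against 1.47 per Mb elsewhere. The lists' own boundaries numbered 2.74 to 2.89 per Mb near the ends and 2.02 to 2.07 elsewhere. Of each list's own boundaries, 66.8 ± 1.48% near the ends and 71.7 ± 0.89% elsewhere were common (SD, n = 4 lists).

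Most intervals between consecutive common boundaries were filled by the same single domain in every sample. This held for 2469 of 3741 intervals (66.0%, 95% Wilson interval 64.5 to 67.5%, counting error only). However, 838 of these were 50 or 100 kb long, and since no domains touch, an interval needs 150 kb to be divided. Among the 2903 intervals that could be divided, 1631 (56.2%, interval 54.4 to 58.0%) held the same single domain in all 4 samples. A further 97 held the same several domains in all 4, separated by shared unlisted stretches of 150 kb or more.

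The inside of an interval was less stable the longer it was. The same single domain filled 89.9% of the 756 intervals of 150 to 200 kb, 65.6% of the 949 of 250 to 450 kb and 35.4% of the 625 of 500 to 950 kb. It filled 20.9% of the 335 intervals of 1000 to 1950 kb and 15.5% (37) of the 238 of 2000 kb or longer. These 37 domains of at least 2 Mb each filled a whole interval. Domains of that length that were identical in all 4 lists inside longer intervals are not in this count. Longer intervals have more bins in which a boundary could be placed. Per bin that could hold an inner 1-bin boundary, the samples listed 3.03 to 4.01% in intervals of 150 to 200 kb, 6.29 to 6.69% in those of 500 to 950 kb and 1.95 to 2.11% in those of 2000 kb or longer. Inner boundaries per bin were thus rarest in the longest intervals, although fewest of these were identical. An interval is long because no common boundary falls inside it, so this low rate is partly set by the choice. The bins also include unlisted stretches, which took up 112 to 143 Mb per sample of the 909 Mb in the longest class.

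**Figure D4:**
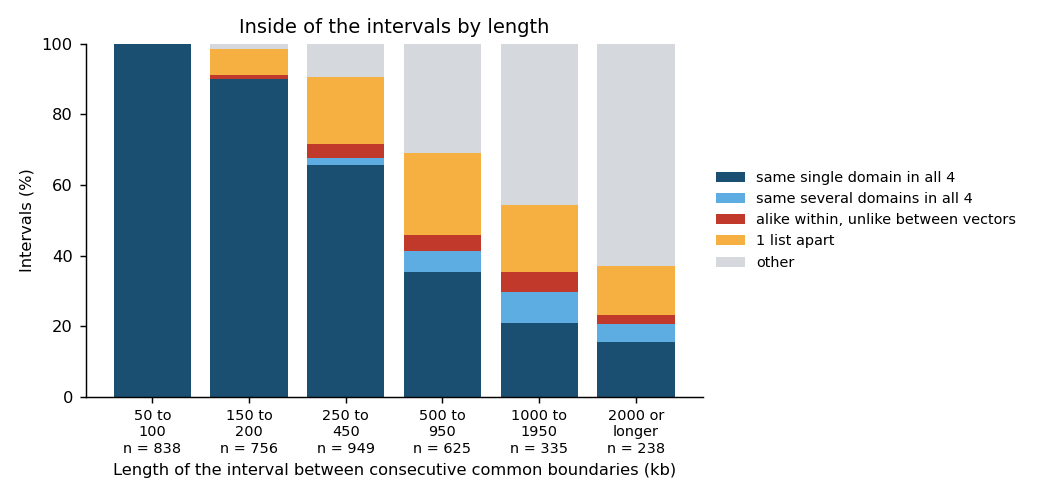
Stacked bars give the percentage of intervals between consecutive common boundaries by what the 4 lists hold inside, for 6 classes of interval length with the number of intervals under each. Intervals of 50 to 100 kb cannot be divided and are all alike, and the share with the same single domain falls from 89.9% at 150 to 200 kb to 15.5% at 2000 kb or longer.

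The longest of these single domains spanned several megabases without a listed break in any sample. Chromosome 16 held the longest, of 7.5 Mb from 47.55 to 55.05 Mb. Chromosome 11 followed with 6.5 Mb (36.7 to 43.2 Mb), chromosome 3 with 5.9 Mb (158.1 to 164 Mb), chromosome 14 with 5.45 Mb (20.9 to 26.35 Mb) and chromosome 1 with 5.4 Mb (164.95 to 170.35 Mb). Each had a common boundary of 50 kb at both ends.

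Chromosomes differed in how often divisible intervals were alike. The same single domain filled 70.3% of 37 such intervals on chromosome 21 (95% Wilson interval 54.2 to 82.5%), 64.0% of 203 on chromosome 5 (57.2 to 70.3%) and 39.7% of 73 on chromosome 19 (29.3 to 51.2%). On chromosome 17 it was 50% of 126 (41.4 to 58.6%) and on chromosome 22 it was 48.0% of 50 (34.8 to 61.5%). Among intervals of 150 to 450 kb alone, chromosome 19 was again lowest with 50% of 50, and chromosome 18 was highest with 88.9% of 36. Intervals of a chromosome are neighbours and not replicates, so no test was made.

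When 1 list stood apart from 3 that were alike, no sample was the usual exception. This was so in 477 intervals. The list apart was an empty vector list in 119 (A) and 120 (B) and a BAF47 list in 124 (A) and 114 (B).

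Samples of the same vector had the same domains inside an interval slightly more often than samples of different vectors. Empty vector A and B were identical in 79.6% of intervals, and BAF47 A and B in 79.8%. When lists of unlike vectors were paired, the 4 pairs were identical in 76.9 to 77.4%, all below both pairs of the same vector. The means differed by 2.47 percentage points, and by 3.19 among the 2903 divisible intervals.

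Intervals that were identical within each vector and different between vectors were few. There were 102 (2.73% of all intervals and 3.51% of the 2903 that could be divided), with a median length of 500 kb. Of these, 37 held more domains with BAF47, 26 held fewer and 39 held the same number at moved edges. In 34 of the 39 no edge moved by more than 50 kb. Of the 37, 25 were a single domain in both empty vector samples, and of the 26, 19 were a single domain in both BAF47 samples. Without requiring identity within a vector, both BAF47 lists held more domains than both empty vector lists in 91 intervals (2.43% of 3741) and fewer in 72 (1.92%).

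The longest intervals with more domains in both BAF47 samples differed by a few domains. On chromosome 5 (156.75 to 163.9 Mb) there were 2 domains in each empty vector sample and 3 in each BAF47 sample, since a 150 kb unlisted stretch of the former held a 50 kb domain in the latter. On chromosome 7 (39.45 to 41.55 Mb) there were 3 and 4 domains, on chromosome 1 (209.25 to 211.15 Mb) 2 and 3, and on chromosome 12 (115.75 to 117 Mb) 1 and 2. The interval on chromosome 6 from 165.9 to 167.4 Mb changed most, with 2 domains of 800 and 650 kb in both empty vector samples and 5 domains of 750, 50, 50, 250 and 200 kb in both BAF47 samples.

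Of the longest intervals with fewer domains in both BAF47 samples, 2 lay on chromosome 4. From 92.85 to 96.8 Mb both empty vector samples listed 5 domains, of 2900, 50, 150, 400 and 150 kb. Both BAF47 samples listed 2 there, of 2950 and 950 kb. From 17.25 to 19.7 Mb there were 4 domains in each empty vector sample and 2 in each BAF47 sample. On chromosome 10 (46.55 to 49.35 Mb) there were 5 and 4, on chromosome 2 (104.1 to 105.45 Mb) 3 and 2, and on chromosome 7 (14.6 to 15.95 Mb) 3 and 1. Intervals differing by vector in any way made up 6.47% of the 139 on chromosome 15, 4.55% of the 176 on chromosome 17 and 4.48% of the 223 on chromosome 4, against 2.73% overall. These shares include intervals too short to be divided. Intervals differing by vector numbered 10 or fewer on every chromosome. None was found among the 80 intervals of chromosome 18 and the 46 of chromosome 21. Approximate 95% upper limits, taken as 3 divided by the number of intervals, were 3.75% and 6.52%. These limits treat neighbouring intervals as independent.

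Summed over all intervals, the BAF47 samples listed slightly more domains. Empty vector A had 6013, empty vector B 5975, BAF47 A 6025 and BAF47 B 6066. Both BAF47 samples lay above both empty vector samples, and the difference of 51.5 exceeded the 38 and 41 between samples of a vector (exact two-sided permutation p = 0.33, the smallest that 4 samples allow). Within letter A it was 12 and within letter B 91. The difference came to 32.5 without empty vector B and 31 without BAF47 B. It was 71 without empty vector A and 72.5 without BAF47 A. Inner 1-bin boundaries numbered 1477 and 1421 with empty vector and 1527 and 1577 with BAF47 (exact permutation p = 0.33).

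The direction differed between short and long intervals. In the 3503 intervals under 2 Mb, domains numbered 5020 and 4979 with empty vector and 5042 and 5085 with BAF47. The difference there was 64 domains, against 41 and 43 between samples of a vector. It did not hold in each shorter class. At 150 to 200 kb the groups overlapped (801 and 790 with empty vector, 796 and 800 with BAF47), as at 500 to 950 kb (1221 and 1213, 1212 and 1236). They were apart at 250 to 450 kb (1241 and 1238, 1261 and 1269) and 1000 to 1950 kb (919 and 900, 935 and 942). In the 238 intervals of 2 Mb or longer the BAF47 samples listed fewer, 983 and 981, against 993 and 996 with empty vector, 12.5 fewer against 3 and 2 between samples of a vector. The exact permutation p was 0.33 for both classes, and the difference between the classes was not tested.

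In the long intervals, the fewer domains of the BAF47 samples covered more of the sequence. Domains covered 753 and 748 Mb with empty vector (A, B) and 770 and 778 Mb with BAF47. The groups differed by 23.4 Mb, which exceeded the 4.95 and 8.70 Mb between samples of a vector (exact permutation p = 0.33). In intervals under 2 Mb the groups overlapped, with 1254 and 1252 Mb against 1252 and 1251 Mb. Unlisted stretches of 1 Mb or more inside long intervals numbered 24 and 26 with empty vector and 18 and 17 with BAF47. The cause of this difference was not tested.

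A few intervals, chosen after their values were seen, weighed heavily in the net difference in listed length over all intervals. The 5 intervals with the widest gap in listed length between the groups, with more in both BAF47 samples, added up to 14.8 Mb of the 22.4 Mb over all intervals, or 66.1%. That share is of a net sum, and choosing the 5 by direction enlarges it. Without these 5 intervals the BAF47 samples listed 1984.75 (A) and 1991 Mb (B), and the empty vector samples 1982 (A) and 1978.6 Mb (B). The remaining 7.58 Mb was thus close to the spread between the BAF47 samples, and it was not tested. Without every interval in which any list left a stretch of 1 Mb or more unlisted, the difference was 6.05 Mb. On chromosome 18 (30.55 to 40.6 Mb) domains covered 4.85 and 3.75 Mb with empty vector and 8.75 and 8.65 Mb with BAF47. Both BAF47 samples listed there a domain of 4.15 Mb from 32.1 to 36.25 Mb, in an interval where the longest domains of the empty vector samples, of 1.85 and 1.8 Mb, lay beyond 38 Mb. The empty vector samples left most of that stretch unlisted, and their longest unlisted stretches in the interval were 1400 (A) and 3600 kb (B). On chromosome 11 (82.1 to 98.45 Mb) both BAF47 samples listed a domain of 4.1 Mb from 92.65 to 96.75 Mb. There the empty vector samples listed almost nothing, from 92.6 to 96.55 Mb (A) and from 92.6 to 96.9 Mb (B) being unlisted. No domain of theirs elsewhere in the interval exceeded 0.6 Mb. The interval on chromosome 5 (17.2 to 31.75 Mb) had 7.35 and 5.15 Mb listed with empty vector and 9.35 and 10.5 Mb with BAF47. Those on chromosome 13 (33.4 to 41.2 Mb) and chromosome 11 (47.85 to 53.15 Mb) differed by 1.78 and 1.10 Mb. The order was reversed on chromosome 17 (41.2 to 42.35 Mb), with 0.85 Mb in each empty vector sample and 0.4 Mb in each BAF47 sample. Intervals with less listed length in both BAF47 samples numbered 100 against 105 with more, or 2.67% and 2.81% of the 3741. Of the 238 intervals of 2 Mb or longer they were 20 and 36, or 8.40% and 15.1%.

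**Figure D5:**
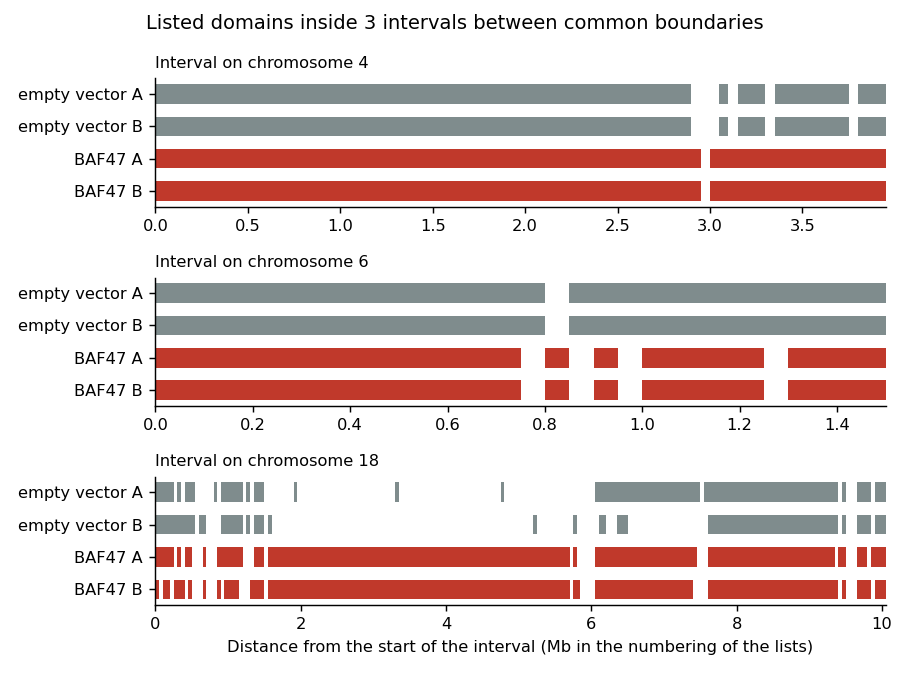
Bars are listed domains in each of the 4 lists (grey, empty vector; red, BAF47), drawn by their distance in Mb from the start of the interval, for intervals on chromosomes 4, 6 and 18. On chromosome 4 both empty vector lists hold 5 domains and both BAF47 lists 2, on chromosome 6 they hold 2 and 5, and on chromosome 18 a domain of 4.15 Mb is listed with BAF47 only. Most of that stretch is unlisted with empty vector.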

How the data were processed

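Hi-C libraries of 4 samples were analysed as lists of domains. The authors deposited 1 list per sample with a chromosome, start and end; these positions are neither counts nor scores, and replicates were not pooled. Per the submitters' processing notes the genome build was hg18. Caller, aligner and filters were not given in the sources used here, and depth is unknown. Wilson intervals cover counting error only. Lists were read and compared with Python 3.11.15, numpy 2.4.6 and scipy 1.17.1. Domains were sorted by chromosome and start, and gaps of 50 kb at identical positions in all 4 lists were kept, leaving out chromosomes 9 and 20. To find steps in numbering, domain starts of each list were matched to those of empty vector A at shifts of at most 3 bins, and the best path of shifts was traced along the chromosome at a cost of 10 matches per change. Interiors were compared by their inner edges. Groups were compared by permuting the vector labels of the 4 samples (exact, two-sided, 6 assignments). Named intervals are the 5 longest of each kind, except those named for listed length, which are the 5 with the widest gap between groups, chosen after their values were seen. The scripts were tested on simulated data. The boundaries and comparisons were chosen with earlier results of these data known. Alternatives covered each sample left out, a shift of 1 bin, wider gaps and the chromosomes used.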

Additional observations from a re-analysis of the deposited data

How the results depend on the processing

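Of 104 alternative values, 29 moved beyond the replicate or counting spread (counts beyond 1.5 times) and 0 changed direction. The differences in number of domains and in listed length were judged by direction and by the side of the test's threshold alone. Since these samples allow no exact permutation p below 0.33, that side was fixed in advance. Such a difference could move only by changing direction, and listed length counted as unmoved even at 6.05 Mb. The tally of 104 is therefore no measure of how robust these differences are. With 1 sample left out, 3948 to 4035 boundaries were common, the median distance was 300 kb, the same single domain filled 69.1 to 69.7% of intervals, the ratio of the densest to the sparsest chromosome was 2.0 to 2.11 (the sparsest was chromosome 13 without BAF47 B and 18 otherwise), and 301 to 316 intervals differed by vector, since a lone sample then stood for its group. Allowing a shift of 1 bin gave 4392 common boundaries, a median distance of 300 kb, 73.7% of intervals with the same single domain and 2.20 points between pairs of the same and of different vectors. All 22 autosomes as listed gave a ratio of 6.14 between chromosomes 17 and 20, where the numbering step leaves 22 common boundaries (105 aligned), and 55 on chromosome 9 (173 aligned). Boundaries of 1 or 3 bins, added after the lists were seen, gave a ratio of 2.04 and 68.6% of intervals with the same single domain. Intervals of 150 kb or longer, also added, gave 56.2% and 3.19 points. Counting only intervals whose number of domains differed by vector left 63 of 102. Boundaries of 1 or 2 bins, and inner edges matched within 1 bin for the single domains, changed nothing by construction. Without intervals holding an unlisted stretch of 1 Mb or more, the difference in listed length was 6.05 Mb in place of 22.4 Mb. With the letter as a replicate block the paired difference in domains was again 51.5 (exact permutation p = 0.50, the smallest 2 pairs allow). The letters were not shown to pair the samples.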
